A study of Mus musculus with 6 samples.

Results

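Secreted WNT antagonists are extracellular proteins that lower WNT signaling before it reaches the cell. Transcripts of 10 of them, Sfrp1, Sfrp2, Sfrp4, Sfrp5, Frzb, Dkk1, Dkk2, Dkk3, Wif1 and Notum, were followed in mouse knee chondrocytes before birth and in the adult. The genes were chosen by name, with earlier results of these data known, and all 10 were found among the 22032 gene rows of the mouse expression matrix. RNA-seq covered 3 embryonic samples (embryonic day 16.5, which the labels write as 16.5 wks) and 3 adult samples (2 months, male B6 mice by the study's methods). Cells of both stages were sorted for BMPR1B, a bone morphogenetic protein receptor used as a chondrocyte surface marker, and against CD31, CD45, Ter119 and ALP, which mark endothelial, leukocyte, erythroid and osteoblast lineage cells. The labels name no transgene and no treatment. The sex of the embryos and the number of animals in a sample were not stated in the sources used here, so a p-value below measures the spread between these samples.

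WNT ligands bind Frizzled receptors together with the co-receptors LRP5 and LRP6, and the signal stabilizes β-catenin, which enters the nucleus and acts with TCF and LEF factors. The secreted frizzled-related proteins (sFRPs, here Sfrp1, Sfrp2, Sfrp4, Sfrp5 and Frzb, also called Sfrp3) carry a cysteine-rich domain like that of the Frizzled receptors and bind WNT ligands. Wif1 also binds WNT ligands, Notum is an enzyme that cleaves the lipid from them, and Dkk1 and Dkk2 bind LRP5 and LRP6 and so keep the co-receptors from WNT. Dkk3 is a divergent member of the Dickkopf family. In the growing skeleton, β-catenin signaling favors bone over cartilage formation and promotes the maturation of growth plate chondrocytes, and Frzb and Wif1 are known as cartilage transcripts.

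Promoter sequences of 6 of the 10 genes were present in the RefSeq table used (GRCm38.p6), those of Sfrp2, Sfrp5, Frzb, Dkk1, Dkk2 and Wif1. Each sequence runs from 250 bases before the transcript start annotated by RefSeq to 50 bases after it, on the strand of the gene. For Frzb and Dkk1 that start lies inside the gene as GENCODE draws it (up to chr2:80447625 and chr19:30549665). Most of these 2 windows therefore lies inside the GENCODE gene. The Wif1 start also lies after that of GENCODE (chr10:121033960). Positions below are counted from the RefSeq start. The 4 shown belong to the genes with an entry whose level differed between the stages, 3 lower in the adult (Sfrp2, chr3:83766071-83766370, + strand; Dkk2, chr3:132085042-132085341, + strand; Frzb, chr2:80447347-80447646, − strand) and 1 higher (Wif1, chr10:121033754-121034053, + strand). Capitals mark exact matches, on either strand, to the TATA box (TATAAA), the CCAAT box (CCAAT), the GC box (CCGCCC) or the TCF/LEF motif (CTTTGAT or CTTTGAA), the last pair sharing their first letters.
Sfrp2: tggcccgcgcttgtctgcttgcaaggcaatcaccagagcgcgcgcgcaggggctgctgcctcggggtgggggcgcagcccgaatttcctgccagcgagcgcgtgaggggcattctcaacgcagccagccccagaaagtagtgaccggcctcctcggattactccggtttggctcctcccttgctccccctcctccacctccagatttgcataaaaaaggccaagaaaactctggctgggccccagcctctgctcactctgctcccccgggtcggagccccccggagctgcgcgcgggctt
Dkk2: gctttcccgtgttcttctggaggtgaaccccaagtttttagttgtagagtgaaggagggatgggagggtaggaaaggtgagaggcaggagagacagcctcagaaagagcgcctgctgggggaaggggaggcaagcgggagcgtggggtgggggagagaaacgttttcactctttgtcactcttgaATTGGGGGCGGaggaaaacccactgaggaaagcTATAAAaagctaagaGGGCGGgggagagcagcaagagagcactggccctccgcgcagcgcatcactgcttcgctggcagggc
Frzb: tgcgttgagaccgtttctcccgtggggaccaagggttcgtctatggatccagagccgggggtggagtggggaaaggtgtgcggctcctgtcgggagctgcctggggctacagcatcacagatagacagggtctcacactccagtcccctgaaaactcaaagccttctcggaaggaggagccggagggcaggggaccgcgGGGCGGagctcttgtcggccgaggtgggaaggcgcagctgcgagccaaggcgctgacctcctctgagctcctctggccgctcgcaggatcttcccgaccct
Wif1: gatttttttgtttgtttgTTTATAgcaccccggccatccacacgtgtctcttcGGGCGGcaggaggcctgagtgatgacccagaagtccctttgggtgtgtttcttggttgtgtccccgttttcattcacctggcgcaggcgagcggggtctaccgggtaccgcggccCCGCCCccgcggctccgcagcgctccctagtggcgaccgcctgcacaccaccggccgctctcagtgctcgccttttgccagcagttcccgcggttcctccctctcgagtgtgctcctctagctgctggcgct
The Dkk2 promoter holds TATAAA with its first base at position −32 from the start, a motif found in 13.6% of the 32851 promoters of this length. It also holds a CCAAT box on the opposite strand directly beside a GC box, and a second GC box closer to the start. CCAAT occurs in 37.4% and CCGCCC in 35.7% of all promoters. Wif1 has GC boxes at −197 and −82 and a reversed TATAAA at −232, Frzb has 1 GC box, and the Sfrp2 window matched none of the letters searched. Neither TCF/LEF motif, found in 3.73% (CTTTGAT) and 5.14% (CTTTGAA) of promoters, was matched in these 4, whereas the Dkk1 promoter (chr19:30549447-30549746, − strand) holds CTTTGAA at −117 and TATAAA at −54. CpG dinucleotides numbered 22 in Sfrp2, 11 in Dkk2, 20 in Frzb and 25 in Wif1, against a median of 7 over all promoters. The gene that rose and the 3 that fell all had a CpG count above the median, but so did Dkk1 (9) and Sfrp5 (15), which were not called. Between 60.4% (Dkk2) and 83.1% (Wif1) of all promoters had as few CpG dinucleotides as these 4. No motif searched was common to all 4.

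Levels are given in TPM, a transcript abundance scaled by transcript length, so that genes can be compared within a sample, and to a total of 1000000 in each sample. The read depth behind a value is unknown from TPM. Over the 6 samples 7314 to 8294 genes were listed at 0, and 6 zeros stood beside at least 20 TPM in the other samples of the stage, so a listed 0 is not read as absence. The share of the total taken by the 20 highest genes was 10.71 to 11.06% per embryonic and 14.58 to 17.7% per adult sample. As a check of the label, the 10 chondrocyte markers, Col2a1, Acan and Sox9 among them, summed to 21969 to 23723 TPM in embryonic and 9520 to 12562 TPM in adult samples, with none at 0. Col2a1 made up most of this sum, and the list went both ways, with 6 lower (Matn3 and Col9a1 the most, by log2 changes of −6.05 and −5.48) and 3 higher in the adult, Sox9 and Comp among them (0.69 and 1.89). Acan did not pass the test. Summed markers of leukocytes ranged from 5.67 to 13.7 TPM in embryonic and 18.98 to 109 TPM in adult samples, those of endothelium from 10.9 to 33.3 and 3.79 to 14.2 TPM, and those of muscle from 2.33 to 17.5 and 3.33 to 10.4 TPM. Erythroid markers reached 257 TPM in embryonic sample 1 and stayed between 7.77 and 43.6 TPM in the other 5 samples. The leukocyte marker Cd3e was listed at 0 in all samples.

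The antagonists split by stage. Dkk2, Sfrp2, Sfrp1, Dkk3 and Frzb were lower in adult than in embryonic chondrocytes, Wif1 was higher, and Sfrp4, Sfrp5 and Notum did not pass the test. Dkk1 was near 0 at both stages and was not tested. The test was limma on log2(TPM + 1) over 13125 genes, those averaging 1 TPM or more, with a Benjamini-Hochberg adjusted p under 0.05 as the threshold. Of the 9 members tested, 5 were lower and 1 was higher, whereas 45.3% of all genes tested were called (23.9% as higher, 21.4% as lower). Adult minus embryonic, the median log2 fold change was −1.24 over the 9 members and 0.16 over all genes tested. Because the members were chosen with earlier results known, the values of all genes stand beside them as background only. The values of the stages did not overlap for the 6 members called, 5 with every adult value below every embryonic one (25.9% of all genes tested) and 1 with every adult value above (30.7%), while 56.5% of all genes tested had separate stages in either direction. In bulk RNA from a sorted population, fewer cells that express a gene and less RNA per cell cannot be told apart, and this holds for every difference below.

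**Figure D1:**
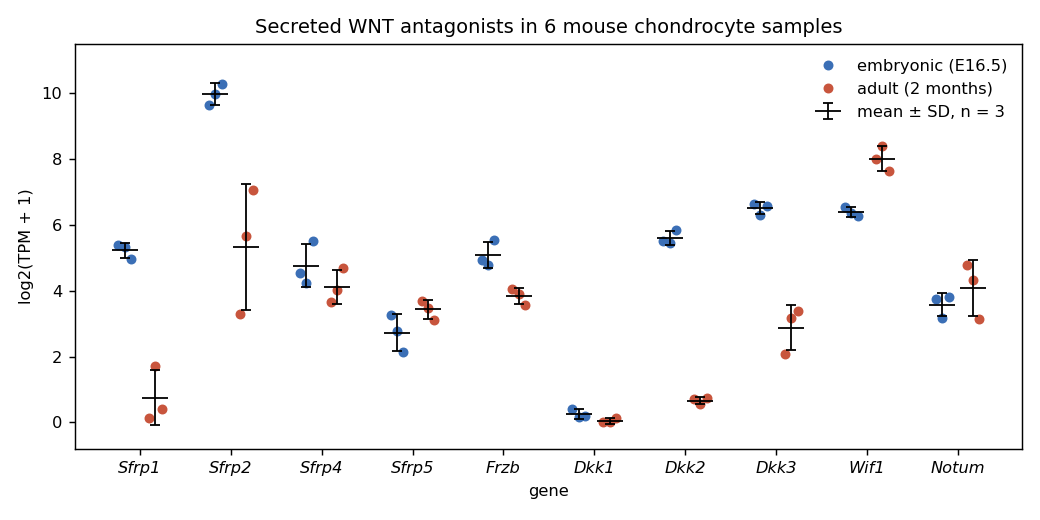
Levels of the 10 secreted WNT antagonists, log2(TPM + 1), in 3 embryonic and 3 adult samples. Each point is 1 sample, the bars are the mean and the SD (n = 3). Dkk2, Dkk3, Sfrp1, Sfrp2 and Frzb sit higher in all 3 embryonic samples, Wif1 sits higher in all 3 adult samples, and Sfrp4, Sfrp5 and Notum overlap.

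Sfrp2 was the most abundant antagonist of the embryonic cells (ENSMUSG00000027996, chr3:83766321-83774316, + strand, 3 exons). It binds WNT ligands through its Frizzled-like domain and is a known product of mesenchymal cells. Its level was 792, 1018 and 1254 TPM in embryonic samples 1 to 3 and 8.72, 49.6 and 133 TPM in adult samples 1 to 3. The groups lay apart, the lowest embryonic value being 5.97 times the highest adult value, but the adult samples themselves differed widely. By its mean it stood 129th among all genes in the embryonic and 3091st in the adult cells. On the log2(TPM + 1) scale it went from 9.97 ± 0.33 to 5.33 ± 1.91 (SD, n = 3 each), a fold change of −4.64 with an SE of 0.764 (limma, adjusted p = 0.00144). With adult replicate 1 left out the change was −3.61, and with adult replicate 3 left out it was −5.50. Only 0.701% of genes tested fell as far. An antisense gene, Gm26771, overlaps 464 bases of Sfrp2 exons and shares 12% of its 50-base words, and it has no row of its own in the matrix, so a contribution from it cannot be told apart.

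Sfrp1, another Frizzled-like binder of WNT (ENSMUSG00000031548, chr8:23411502-23449632, + strand, 3 exons), measured 41.4, 39.0 and 30.3 TPM in embryonic and 0.109, 2.30 and 0.317 TPM in adult samples. All adult values were near the bottom of the scale, the lowest embryonic value being 13.2 times the highest of them. The log2 level fell from 5.23 ± 0.23 to 0.76 ± 0.85 (SD, n = 3 each), a change of −4.48 with an SE of 0.468 (limma, adjusted p = 0.000125). Frzb was lower by less (ENSMUSG00000027004, chr2:80411970-80447625, − strand, 6 exons). This gene, whose product is a cartilage sFRP, measured 29.6, 26.6 and 45.4 TPM in embryonic and 15.6, 13.9 and 10.9 TPM in adult samples. Its stages were separated by a gap of 1.71 times, and all adult samples kept over 10 TPM. The log2 change was −1.24, with an SE of 0.278 (limma, adjusted p = 0.00665), and 14.3% of genes tested fell at least as far.

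Sfrp4 and Sfrp5 did not share the fall of Sfrp1 and Sfrp2. Sfrp4 (ENSMUSG00000021319, chr13:19623104-19632994, + strand) measured 22.4, 17.9 and 44.4 TPM in embryonic and 11.7, 15.1 and 24.7 TPM in adult samples. The highest adult sample lay above 2 of the embryonic samples. The log2 change was −0.64, with a 95% interval of −1.53 to 0.24 (limma, adjusted p = 0.207). Sfrp5 (ENSMUSG00000018822, chr19:42197971-42202252, − strand) measured 8.63, 5.84 and 3.40 TPM in embryonic and 12.0, 10.2 and 7.63 TPM in adult samples. Its groups overlapped in a single pair, embryonic sample 1 and adult sample 3, and the log2 change was 0.71, with a 95% interval of −0.20 to 1.62 (limma, adjusted p = 0.18). On the log2(TPM + 1) scale a gene cannot fall by more than its embryonic level, which averaged 2.73 for Sfrp5 and 4.76 for Sfrp4. Falls as large as those fitted for Sfrp1 and Sfrp2 were thus out of reach for Sfrp5 and nearly so for Sfrp4. These intervals therefore cannot be set against those falls. Whether sFRPs differed from each other in their stage change was not tested.

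Dickkopf transcripts were far lower in the adult cells. Dkk2, a ligand of LRP5 and LRP6 (ENSMUSG00000028031, chr3:132085292-132180304, + strand, 4 exons), measured 44.4, 43.1 and 56.3 TPM in embryonic and 0.629, 0.461 and 0.678 TPM in adult samples. Replicates were tight at both stages, and the lowest embryonic value was 63.7 times the highest adult value. Its log2 level went from 5.60 ± 0.21 to 0.67 ± 0.11 (SD, n = 3 each), a change of −4.94 with an SE of 0.322 (limma, adjusted p = 1e-05). Among the genes tested 0.594% fell as far. By the mean TPM the level was 81.4 times higher in the embryonic cells, a figure that the log2(TPM + 1) scale understates because of the low adult values.

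Dkk3, the divergent family member (ENSMUSG00000030772, chr7:112116017-112159057, − strand, 8 exons), was higher than Dkk2 at both stages. It measured 99.3, 78.2 and 95.4 TPM in embryonic and 3.26, 8.01 and 9.43 TPM in adult samples. The adult samples thus kept a low level, with the lowest embryonic value 8.30 times the highest adult value. The log2 change was −3.63, with an SE of 0.341 (limma, adjusted p = 6.95e-05). Dkk1, the founding LRP antagonist (ENSMUSG00000024868, chr19:30545863-30549665, − strand), measured 0.334, 0.115 and 0.135 TPM in embryonic samples, was listed at 0 in adult samples 1 and 2 and measured 0.0987 TPM in adult sample 3. No fold change is given for a gene this low. Fitted without the filter on low values, its difference had an adjusted p of 0.192 (limma). Within the family, Dkk3 and Dkk2 therefore made up nearly all Dickkopf transcripts in every sample.

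Wif1 was the antagonist that rose (ENSMUSG00000020218, chr10:121033960-121100650, + strand, 10 exons). It encodes WNT inhibitory factor, which holds WNT ligands outside the cell. Its level was 92.4, 80.8 and 75.7 TPM in embryonic and 258, 334 and 197 TPM in adult samples. Every adult sample lay above every embryonic sample, by at least 2.13 times. The log2 level rose from 6.39 ± 0.14 to 8.01 ± 0.38 (SD, n = 3 each), by 1.62 with an SE of 0.195 (limma, adjusted p = 0.00027). A rise of at least this size was seen in 9.68% of genes tested. Wif1 moved from rank 2398 to rank 574 among all genes by mean TPM.

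Notum, the WNT deacylase (ENSMUSG00000042988, chr11:120653788-120661175, − strand, 11 exons), measured 12.5, 8.02 and 12.9 TPM in embryonic and 26.8, 19.2 and 7.83 TPM in adult samples. Adult samples 1 and 2 lay above all embryonic samples, whereas adult sample 3 was the lowest of the 6. The log2 change was 0.52, with a 95% interval of −0.49 to 1.52 (limma, adjusted p = 0.367). With adult replicate 3 left out, the change came to 0.99 (limma, adjusted p = 0.0472), so this library decided the call. Notum shares 29.5% of its 50-base words with other genes, 24.3% with the antisense gene Notumos, which has no row in the matrix, and whether the counting used strand was not given in the sources used here.

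**Figure D2:**
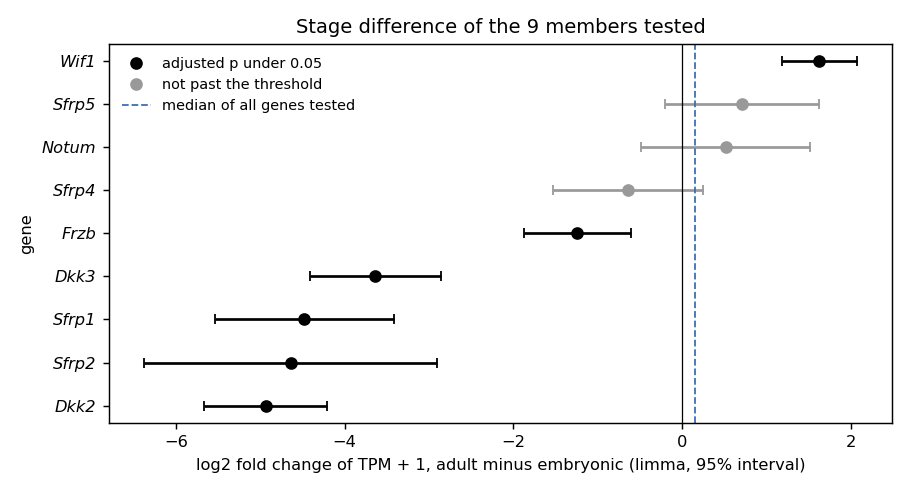
Stage difference of the 9 antagonists tested, as the log2 fold change of TPM + 1, adult minus embryonic, with its 95% interval from limma. Black points passed an adjusted p of 0.05, grey points did not, and the dashed line is the median of all genes tested, 0.16. Dkk2, Sfrp2, Sfrp1 and Dkk3 lie between −4.94 and −3.63, Frzb at −1.24 and Wif1 at 1.62.

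The order of the antagonists changed between the stages. In embryonic cells Sfrp2 led with a mean of 1022 TPM, above Dkk3 (91.0) and Wif1 (83.0), whose sample ranges overlapped, and then Dkk2 (47.9). Sfrp1 (36.9), Frzb (33.8) and Sfrp4 (28.2) came next with overlapping neighbors, followed by Notum (11.2) and Sfrp5 (5.95), which overlapped as well, and Dkk1 (0.195). In adult cells Wif1 led with a mean of 263 TPM. Sfrp2 (63.7), Notum (17.9), Sfrp4 (17.2), Frzb (13.5), Sfrp5 (9.95) and Dkk3 (6.90) followed, each overlapping the next in its sample range. Sfrp1 (0.909) and Dkk2 (0.589) overlapped each other below them, and Dkk1 (0.0329) came last. Dkk2 thus went from the 4th to the 9th place while Wif1 went from the 3rd to the 1st.

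Summed over the 10 genes, antagonist transcripts were 1143, 1318 and 1618 TPM in embryonic and 336, 453 and 391 TPM in adult samples, means that differ 3.46 times. All adult sums were below all embryonic sums (exact two-sided permutation test, p = 0.1, the smallest that 3 against 3 samples allow). With Sfrp2 left out the difference was not seen. The other 9 genes together summed to 351, 299.5 and 364 TPM in embryonic and 328, 403 and 259 TPM in adult samples, which overlapped (exact two-sided permutation test, p = 0.8). That sum sets the rise of Wif1, from a mean of 83.0 to 263 TPM, against lower levels of Dkk3, Dkk2, Sfrp1 and Frzb. It therefore does not show that these genes were level between the stages. Sfrp2 held 69.3, 77.3 and 77.5% of the antagonist transcripts in embryonic samples, against 2.59, 10.9 and 33.9% in adult samples. Wif1 held 8.08, 6.13 and 4.68% in embryonic samples, against 76.6, 73.8 and 50.3% in adult samples. The leading transcript was therefore Sfrp2 in 3 of 3 embryonic samples and Wif1 in 3 of 3 adult samples.

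**Figure D3:**
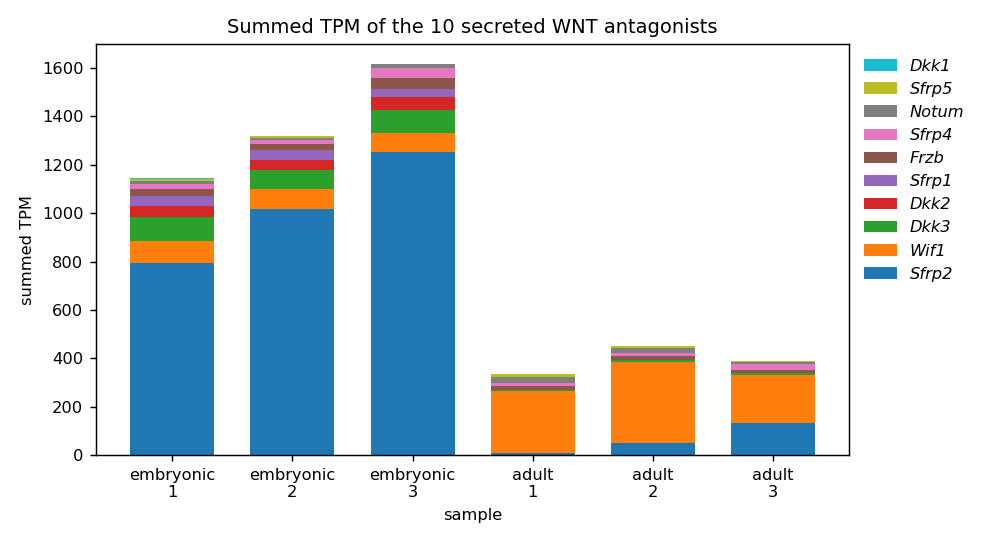
Summed TPM of the 10 secreted WNT antagonists in each of the 6 samples, stacked by gene. The embryonic bars reach 1143 to 1618 TPM and are mostly Sfrp2, and the adult bars reach 336 to 453 TPM and are mostly Wif1.

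By family, the sFRP genes, which share the Frizzled-like domain, and the Dickkopf genes were both lower in summed level in the adult. The 5 sFRP genes summed to 894, 1107 and 1377 TPM in embryonic and 48.1, 91.1 and 176 TPM in adult samples, a ratio of means of 10.7. Without Sfrp2 the other 4 summed to 102, 89.2 and 123 TPM and to 39.3, 41.6 and 43.6 TPM, a ratio of 2.53. The 3 Dickkopf genes summed to 144, 121 and 152 TPM and to 3.89, 8.47 and 10.2 TPM, a ratio of 18.5. Most of the Dickkopf sum was the divergent Dkk3, by means 91.0 of 139 TPM in embryonic and 6.90 of 7.52 TPM in adult samples. The ratio is therefore not a measure of the LRP ligands Dkk1 and Dkk2 alone. The stages did not overlap in any of these 3 sums (exact two-sided permutation test, p = 0.1 each, the smallest possible).

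Summed levels of the Frizzled receptors and of the WNT ligands were also lower in the adult samples. The 10 Frizzled receptors summed to 218, 197 and 223 TPM in embryonic and 84.8, 118 and 121 TPM in adult samples, and the 19 WNT ligands to 92.9, 81.8 and 106 TPM and to 36.0, 42.9 and 61.0 TPM. These are ratios of means of 1.97 and 2.01, below that of all 10 antagonists (3.46) and above that of the 9 without Sfrp2 (1.03). The sum of those 9 includes the rise of Wif1. Summed sFRP transcripts exceeded summed Frizzled transcripts 4.10, 5.63 and 6.17 times in the embryonic samples, and the same ratio was 0.567, 0.772 and 1.46 in the adult samples. The ratio was higher in every embryonic than in any adult sample (exact two-sided permutation test, p = 0.1, the smallest possible), and this rested on Sfrp2. Without Sfrp2 the ratio was 0.467, 0.454 and 0.553 in embryonic and 0.464, 0.352 and 0.360 in adult samples, which overlapped (exact two-sided permutation test, p = 0.2).

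**Figure D4:**
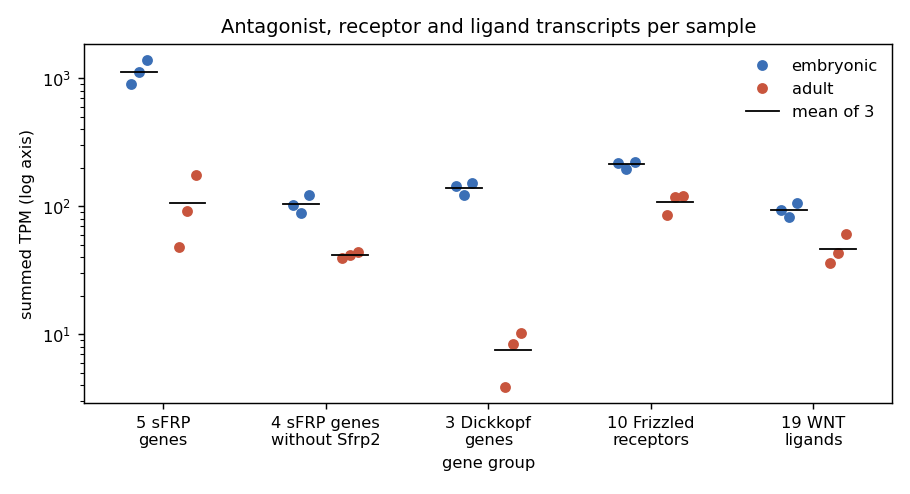
Summed TPM (log axis) of the 5 sFRP genes, the 4 without Sfrp2, the 3 Dickkopf genes, the 10 Frizzled receptors and the 19 WNT ligands. Each point is 1 sample (blue embryonic, red adult) and each line is the mean of 3. The adult points lie below the embryonic points in every group, with ratios of means of 10.7, 2.53, 18.5, 1.97 and 2.01.

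The rest of the pathway was read from 9 lists of 84 genes, of which 63 were tested, 36 were lower and 3 were higher in the adult. This is 61.9% called, against 45.3% of all genes tested (21.4% lower and 23.9% higher), and the median log2 change was −1.21, against 0.16. The lists were chosen with earlier results known, and their counts below stand beside the same shares. Among 7 other secreted antagonists, the 2 tested were both lower. Igfbp4, an IGF binding protein that also antagonizes WNT, measured 850, 719 and 760 TPM in embryonic and 85.3, 64.3 and 163 TPM in adult samples, a log2 change of −2.99 (limma, adjusted p = 7.98e-05). Sostdc1, an LRP and BMP antagonist, measured 4.75, 8.44 and 3.75 TPM in embryonic samples and was listed at 0 in all adult samples. Sost, the osteocyte antagonist of LRP5 and LRP6, and Dkk4 were listed at 0 in all 6 samples.

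Of the receptors of the Dickkopf proteins 1 of 3 tested passed the threshold. Lrp5 measured 95.3, 90.8 and 79.8 TPM in embryonic and 73.1, 67.1 and 70.8 TPM in adult samples, and its log2 change of −0.33 did not pass the test (limma, adjusted p = 0.0906). Lrp6 had a log2 change of −0.30 (adjusted p = 0.134). Kremen1, which takes up LRP with bound Dickkopf, was lower, with a log2 change of −0.72 (adjusted p = 0.0201), a call lost in 4 of 16 alternatives. Of 14 Frizzled and other WNT receptors 8 were lower and none was higher at the threshold, and the 3 largest changes were in receptors outside the Frizzled family. Ror1, a receptor kinase for WNT5A, measured 23.1, 19.1 and 23.5 TPM in embryonic and 0.0581, 0.753 and 0.385 TPM in adult samples, and Ptk7 and Ror2 had log2 changes of −3.39 and −2.47 (limma, adjusted p = 3.26e-05 and 0.000523). Among the Frizzleds themselves, Fzd4, Fzd6, Fzd7 and Fzd8 were lower, as was Fzd3, whose call was lost in 9 of 15 alternatives.

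Of 19 WNT ligands 8 were tested, and Wnt5b, Wnt2, Wnt16 and Wnt5a were lower, the last with a call lost in 9 of 16 alternatives. Wnt5b, a noncanonical ligand of chondrocytes, measured 12.4, 13.3 and 13.5 TPM in embryonic samples, 0.722 and 0.583 TPM in adult samples 1 and 2 and was listed at 0 in adult sample 3. Wnt2 measured only 2.31, 6.01 and 6.02 TPM and Wnt16 only 8.44, 3.98 and 2.04 TPM in embryonic samples. Both were listed at 0 in all adult samples. Wnt11, the most abundant ligand, measured 43.8, 41.8 and 56.1 TPM in embryonic and 28.6, 34.0 and 49.7 TPM in adult samples and did not pass the test (limma, adjusted p = 0.255). No ligand passed the threshold as higher in the adult.

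Glypicans, cell surface proteoglycans that bind WNT, fell in 4 of 5 tested. Gpc3 had the largest change of any WNT pathway gene listed, from 878, 774 and 902 TPM in embryonic to 2.81, 1.13 and 3.81 TPM in adult samples, a log2 change of −7.97 (limma, adjusted p = 3.85e-07). Gpc6 was lower with a log2 change of −1.79 (adjusted p = 0.000121), and Gpc2 with −2.04 (adjusted p = 0.0173), a call lost in 4 of 15 alternatives. Of the R-spondin axis, which amplifies WNT signals, 3 of 7 tested were lower (Rspo2, Rspo3 and Lgr5) and 1 was higher. The one that rose was Lgr6, an R-spondin receptor, with 14.2, 15.6 and 17.2 TPM in embryonic and 70.0, 163 and 92.7 TPM in adult samples. Its stages did not overlap, and its log2 change was 2.63 with an SE of 0.293 (limma, adjusted p = 0.000176). Of the secretion genes, Wls, the carrier of WNT to the cell surface, was lower, with a log2 change of −0.42 (adjusted p = 0.0309), a call lost in 9 of 16 alternatives.

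Of 13 intracellular transducers 4 were lower and 2 higher, 46.2% called and so close to the 45.3% of all genes tested, and the median log2 change was −0.01. Ctnnb1, which encodes β-catenin, had a log2 change of 0.16 (limma, adjusted p = 0.377). Dvl1 and Apc were higher, and Tcf7l1, Tcf7l2, Csnk1a1 and Axin1 were lower, the last with a call lost in 10 of 16 alternatives. Of 10 genes listed as targets of β-catenin in many tissues, not all of them feedback regulators, 9 were tested and all 9 were lower, while Sp5 was too low to test. The calls of Apcdd1 (log2 change −1.79, adjusted p = 0.0245) and Nkd2 (−1.34, adjusted p = 0.0488) were lost in 6 and 10 of 15 alternatives. The largest changes in this list were those of Ccnd1 (−3.52, adjusted p = 5.84e-05) and Twist1 (−1.82, adjusted p = 0.000722). Axin2, a negative regulator used as a readout of the pathway, measured 12.7, 11.8 and 14.1 TPM in embryonic and 4.19, 3.78 and 2.74 TPM in adult samples, a log2 change of −1.61 (limma, adjusted p = 0.00482). Lef1 measured 51.4, 50.2 and 45.6 TPM and 11.3, 22.5 and 9.55 TPM, a log2 change of −1.79 (adjusted p = 0.00187). Both lay apart between the stages. Several genes of this list, Ccnd1 and Myc among them, are also genes of dividing cells.

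Markers of other connective tissue cells also differed between the stages, though not all in 1 direction. Of 7 fibroblast and synovium markers 5 were lower in the adult (Cd34, Dpt, Pi16, Dpp4 and Clec3b), and the list summed to 755 to 898 TPM in embryonic and 228 to 363 TPM in adult samples, with none at 0 in either stage. Of 5 tendon and ligament markers Scx, Tnmd and Kera were lower, although the sum of the list, mostly Fmod, was 1085 to 1302 TPM in embryonic and 1118 to 1911 TPM in adult samples. Tnmd, a tendon and ligament transcript, measured 262, 108 and 162 TPM in embryonic samples, was listed at 0 in adult sample 1 and measured 2.11 and 0.703 TPM in adult samples 2 and 3. Of 7 osteoblast markers 3 were higher and 2 lower, and their sum, mostly Col1a1 in the embryo, was 4913 to 5996 TPM in embryonic and 530 to 1085 TPM in adult samples. Ibsp, a bone matrix transcript, was higher, with 0.148, 29.6 and 5.07 TPM in embryonic and 316, 235 and 308 TPM in adult samples (limma, adjusted p = 0.00164). Bglap and Bglap2, the osteocalcin genes, were listed at 0 in all embryonic samples, and Bglap measured 26.8, 15.8 and 83.9 TPM in the adult samples. Bglap2 measured 13.4, 0.260 and 43.9 TPM in adult samples 1 to 3, and its call was lost in 8 of 16 alternatives. The part of these cell types in the differences of Sfrp1, Sfrp2, Dkk2, Dkk3, Frzb and Wif1 was not tested. Among the adult samples the marker lists did not follow 1 order. Sample 1, with the lowest Sfrp2 and Dkk3 and the highest Frzb, had the lowest Col1a1, at 170 TPM against 603 and 637 TPM. The summed osteoblast markers rose from sample 1 to sample 3 (530, 857 and 1085 TPM), as Sfrp2 did. The summed fibroblast markers were lowest in sample 2, at 228 TPM against 313 and 363 TPM in samples 1 and 3. Pdgfra made up most of that sum (219, 145 and 258 TPM in samples 1 to 3). In that list Clec3b (5.81, 7.67 and 9.55 TPM) and Pi16 (0.123, 0.572 and 2.62 TPM) followed the order of Sfrp2. Cd34, Dpt, Dpp4, Thy1 and Pdgfra did not.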

How the data were processed

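RNA-seq of sorted mouse knee chondrocytes was analysed in 3 embryonic and 3 adult samples, grouped by the tissue label. RNA was made with a Qiagen Micro kit. For the library, the labels give a Kapa mRNA-Seq kit and the methods give Nugen Ovation V2 cDNA with a Kapa LTP kit. According to the submitters' processing notes, the authors used GRCm38 and RSEM (version not given in the sources used here), and they deposited log2 values, log2(TPM + 1) per gene. These were taken back to TPM for levels and sums.

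Symbols and positions came from GENCODE M21 (GRCm38). Of 22032 rows, 21902 had a symbol and 130 had none. Stages were compared with limma 3.58.1 in R 4.3.3 (lmFit, eBayes with trend) on log2(TPM + 1), a pseudocount of 1, for the 13125 genes averaging 1 TPM or more. Benjamini-Hochberg adjustment covered all of them and the threshold was 0.05. EBSeq, named in the methods, needs counts and was not used here. Sums were compared by exact permutation tests. On simulated data with 13125 genes, of which 200 were changed, 59.1% of genes changed by 2 and 24.7% of those changed by 1 (log2) were called. There were 5 false calls among unchanged genes. In the real data 45.3% of genes were called, a far larger share than was changed in the simulation, so these rates need not hold there.

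Tried in turn were other scalings (quantile, median-of-ratios, or leaving the 20 highest genes out of the total), a pseudocount of 0.1, filters of 0 or 5 TPM, eBayes robust or with no trend, a stricter threshold of 0.01, a term for the replicate number, and the omission of each sample. Members, the 9 pathway lists and 8 marker lists were chosen with earlier results of these data known. Besides the members, the genes named are up to 3 called genes per pathway list with the largest change in each direction, and further pathway and marker genes singled out after their values were seen. Promoters were RefSeq's. Python 3.11.15, pandas 2.3.3, numpy 2.4.6, scipy 1.17.1 and matplotlib 3.10.9 were used.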

Additional observations from a re-analysis of the deposited data

How the results depend on the processing

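Over 16 alternatives, 5 members were lower in each, and 1 was higher except without adult replicate 3, where Notum was added (leaving out a sample, 1 to 2 higher). Of 144 refitted values of the 9 members tested, 143 kept their direction and side of the threshold, none reversed, and 1 (Notum) gained the call. Adjusted p-values reached at most 0.0407 for Sfrp2 and 0.0343 for Frzb. The 40 other pathway genes named kept theirs in 568 of 632 values, lost the call in 62 and gained it in 2. The 19 marker genes named did so in 285, 12 and 6 of 303, and none of these reversed. Other pathway genes lower numbered 26 to 40. At an adjusted p under 0.01, 1855 genes were higher and 1863 lower, against 3140 and 2809, which became 2441 to 2796 and 2162 to 2761 when a sample was left out. Without the 20 highest genes 5 other WNT pathway genes were higher in place of 3 (3 to 4 with a sample left out). The summed antagonists differed by −1.93 to −1.65 on the log2 scale. The median change of all genes, 0.16, was 0.03 under median-of-ratios scaling and 0.25 without the 20 highest genes. The causes were not tested.

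Same-numbered samples did not deviate together (correlations of −0.00884, −0.0169 and −0.0223). No pairing by number was thus seen, though correlations between 3 samples a stage cannot exclude that same-numbered samples were handled together. With the replicate number as a block, 1 member was higher and 5 were lower, as without it. Over all genes 2871 were higher and 2559 lower with the block.

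TPM carries no depth, so values near 0, such as those of Dkk1 or of Dkk2 in the adult, have no counting interval, and precision rests on 3 samples a stage. The paper states that read totals are listed in its supplement, and they were not used here.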
